A study of Mus musculus with 6 samples.

Results

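Liver macrophages were followed through 36 genes whose transcripts mark Kupffer cells, recruited and lipid-associated macrophages, and the MHC class II pathway, all of which were found by symbol among the 20107 genes of the table. The rule names the genes by their known roles and uses no measured value. Earlier results of these data were known, however, when this list and the further gene lists below were made. Kupffer cells are the macrophages that live in the liver sinusoids, where they clear particles, aged red cells and bacterial products from portal blood. When the liver is injured or loaded with fat, blood monocytes can enter and become macrophages, some of which take on a lipid-associated state that handles lipid and cell debris. MHC class II molecules display peptides from engulfed proteins to CD4+ T cells, and macrophages, dendritic cells and B cells carry them.

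The samples were 6 bulk RNA libraries from livers of wild-type male C57BL/6N mice, littermates aged 16 weeks. The labels do not state that each sample was a separate animal, so each liver named below stands for a library. In the HFHC group (replicates 1, 2 and 3) mice ate a fatty, calorie-rich food with fructose and drank a high-fructose solution, freely, for 8 weeks from the age of 8 weeks. The Chow group (replicates 7, 8 and 9) stayed on chow to the same age. The amounts of fat and fructose are not given in the labels, and food and drink changed together, so their parts cannot be told apart.

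The HFHC libraries held 30096409 to 30871297 counts and the Chow libraries 26767416 to 27339613, so the floor of 3 counts stood at 0.0954 to 0.114 CPM (counts scaled to the TMM-adjusted size of the library), which covers counting error only. The labelled tissue matched its markers, with 8 hepatocyte markers summing to 97440 to 100500 CPM in HFHC and 91050 to 111900 CPM in Chow. Of these 8, Cps1 and Apob were called lower. Across the 14896 genes that could be tested, HFHC livers were higher in 503 and lower in 491. A gene is called changed here when its adjusted p in edgeR's quasi-likelihood test is under 0.05.

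Of the 36 genes, 35 passed the filter on low counts, and only Gpnmb did not. Among the 35, Lgals3 alone rose, none fell and 34 were not called, against a background of 3.38% of all tested genes called higher and 3.30% called lower. A positive log2 fold change (HFHC over Chow) was seen in 29 of 35, or 82.9%, against 49.5% of all tested genes, and the median was 0.30 against -0.0033. At an unadjusted p under 0.05, 15 were higher and 1 lower, against 10.8% and 11.5% of all tested genes. Every HFHC library lay above every Chow library in 15 genes and below in 1, against 13.5% and 14.3% of all tested genes. By role, the unadjusted edgeR p was under 0.05 and the gene higher for 2 of 7 resident Kupffer genes, 3 of 6 general macrophage genes, 1 of 3 C1q genes, 0 of 2 adaptors, 2 of 6 lipid-associated genes, 1 of 3 monocyte genes, 4 of 5 class II genes and 2 of 3 sensors, and 1 Kupffer gene was lower. DESeq2 called 3 of the genes, Lgals3, Mpeg1 and Cd74, where it called 3.92% of all genes higher. These counts are descriptions, because genes of the same cells move together from library to library and are not independent. In bulk tissue, more cells of a type and more RNA per cell cannot be told apart.

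**Figure D1:**
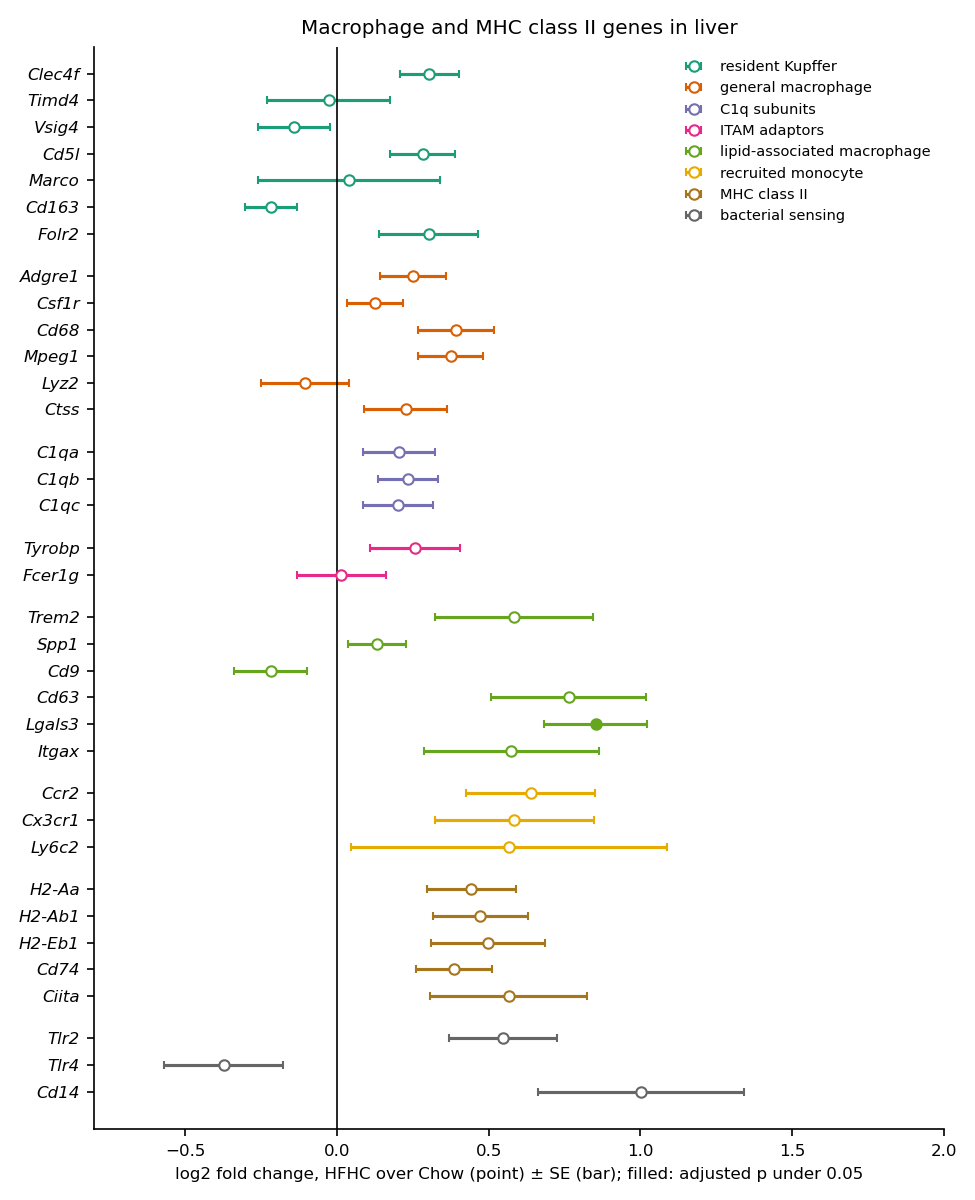
Log2 fold change of the 35 tested genes, HFHC over Chow, with its standard error as a bar, ordered and coloured by role. The filled point, Lgals3 at 0.85, is the only gene called. The C1q, adaptor, recruited monocyte and class II genes all lie right of 0.

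Resident Kupffer genes moved in both directions, with 4 positive and 3 negative log2 fold changes, a median of 0.04 and no call among 7. That median was -0.17 without Chow replicate 8, -0.15 with weighted limma-voom and -0.03 with each library's GC and length trend taken out, so no direction can be read from it. Clec4f, a C-type lectin that in mouse is restricted to Kupffer cells, had 91.3, 89.6 and 109.1 CPM in HFHC livers and 82.6, 72.8 and 79.4 CPM in Chow livers (log2 fold change 0.30 ± 0.10 SE, adjusted p = 0.0987). The 2 diets did not overlap, but the difference did not pass the threshold. Cd5l, a secreted scavenger receptor protein also called AIM, had 87.3, 82.5 and 102.6 CPM in HFHC and 81.2, 66.7 and 76.0 CPM in Chow (0.28 ± 0.11, adjusted p = 0.156). Its HFHC livers were again all above the Chow livers, with HFHC replicate 3 highest for both genes.

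Cd163, the scavenger receptor for haemoglobin bound to haptoglobin, had 19.0, 17.8 and 20.2 CPM in HFHC and 21.6, 22.7 and 21.95 CPM in Chow (-0.22 ± 0.08, adjusted p = 0.167). It was the single gene of the 36 whose HFHC libraries were all below the Chow libraries. Vsig4, a complement receptor of Kupffer cells, had 19.0, 18.7 and 21.8 CPM in HFHC and 25.4, 19.4 and 20.8 CPM in Chow, and the diets overlapped (-0.14 ± 0.12, adjusted p = 0.541). Timd4, the phosphatidylserine receptor of long-lived resident Kupffer cells, averaged 5.43 ± 1.35 CPM in HFHC and 5.54 ± 1.05 CPM in Chow (SD, n = 3 each). The scavenger receptor gene Marco averaged 1.81 ± 0.52 CPM in HFHC and 1.76 ± 0.59 CPM in Chow. The log2 fold changes of Timd4 (-0.03 ± 0.20) and Marco (0.04 ± 0.30) had standard errors larger than themselves, so no direction could be read at this depth. Folr2, folate receptor beta, averaged 7.61 ± 1.68 CPM in HFHC and 6.17 ± 0.53 CPM in Chow (0.30 ± 0.16). A gene on the opposite strand, Gm10602, covers 63.1% of the exonic bases of Folr2, and whether counting used strand is not given in the sources used here.

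Genes of macrophages at large had 5 positive values and 1 negative among 6, with a median of 0.24 and no call. Mpeg1, which encodes the pore-forming perforin-2 of phagocytes, had 88.1, 80.02 and 96.0 CPM in HFHC and 73.1, 58.7 and 72.0 CPM in Chow. The lowest HFHC liver lay above the highest Chow liver, with a log2 fold change of 0.37 ± 0.11 (adjusted p = 0.0693). DESeq2 called Mpeg1 (adjusted p = 0.0226). Cd68, a lysosomal glycoprotein, had 5.73, 6.12 and 5.57 CPM in HFHC and 4.67, 4.64 and 3.96 CPM in Chow (0.39 ± 0.13, adjusted p = 0.101). Adgre1, which encodes the F4/80 antigen, averaged 15.6 ± 1.9 CPM in HFHC and 13.1 ± 0.65 CPM in Chow (0.25 ± 0.11, adjusted p = 0.214), also without overlap.

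Csf1r, the receptor for the growth factors CSF1 and IL-34 on which macrophages depend, averaged 38.6 ± 2.8 CPM in HFHC and 35.4 ± 3.0 CPM in Chow (0.13 ± 0.09). Ctss, the lysosomal protease cathepsin S, averaged 26.4 ± 5.2 CPM in HFHC and 22.6 ± 2.1 CPM in Chow (0.23 ± 0.14). Lyz2, lysozyme M, went the other way with 35.7, 44.9 and 52.1 CPM in HFHC and 53.8, 40.5 and 48.5 CPM in Chow (-0.11 ± 0.15, adjusted p = 0.726). The diets overlapped for these 3 genes. An opposite-strand gene, Hmgxb3, covers 15.1% of the exonic bases of Csf1r and averaged 15.5 CPM in HFHC and 15.4 CPM in Chow.

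The C1q subunit genes lie side by side on the minus strand of chromosome 4 (mm10), from the start of C1qb at 136880129 to the end of C1qa at 136898803, and their products join into the molecule that starts the classical complement pathway. Their log2 fold changes were alike, at 0.20 ± 0.12 for C1qa, 0.23 ± 0.10 for C1qb and 0.20 ± 0.12 for C1qc, and none was called. C1qb had 31.5, 31.8 and 38.2 CPM in HFHC and 30.96, 27.8 and 27.6 CPM in Chow (adjusted p = 0.201). C1qa had 25.7, 26.5 and 33.7 CPM in HFHC and 25.3, 22.5 and 26.7 CPM in Chow, and C1qc had 27.3, 27.7 and 36.3 CPM in HFHC and 27.6, 26.0 and 25.8 CPM in Chow. HFHC replicate 3 was the highest library for all 3 subunits. Without it the values were 0.07 for C1qa, 0.14 for C1qb and 0.06 for C1qc. With all libraries kept and each library's GC and length trend taken out, they were 0.07, 0.10 and 0.09 in the same order. Over the 14 alternatives C1qa ran from 0.07 to 0.28, C1qb from 0.10 to 0.29 and C1qc from 0.06 to 0.28. Per kilobase of exon, C1qc stood at 0.505 ± 0.027 of C1qb in HFHC and 0.520 ± 0.015 in Chow, and C1qa at 0.883 ± 0.037 of C1qb in HFHC and 0.906 ± 0.093 in Chow. These ratios, whose size depends on the merged exon lengths used, overlapped between the diets.

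Among partners of C1q in the classical pathway, a list of 10 genes, 2 fell, none rose and 8 were not called (median 0.09). The background was 3.38% of all tested genes called higher and 3.30% called lower. C3, the central complement component made largely by hepatocytes, fell by 0.62 ± 0.11 on the log2 scale to 3567 ± 423 CPM in HFHC, against 5489 ± 318 CPM in Chow (adjusted p = 0.0118). C2 fell by 0.57 ± 0.12 (adjusted p = 0.022), but its values were not whole numbers in any library, so its level is uncertain. The call of C3 was lost without Chow replicate 7 (0.0569), and that of C2 without HFHC replicate 1 (0.0819), HFHC replicate 2 (0.082) or Chow replicate 7 (0.078).

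The adaptors Tyrobp (DAP12) and Fcer1g carry the ITAM signal motif for receptors such as TREM2 and the Fc receptors. Tyrobp had 4.803, 5.54 and 6.57 CPM in HFHC and 5.12, 4.32 and 4.71 CPM in Chow (0.26 ± 0.15, adjusted p = 0.355). Fcer1g averaged 3.77 ± 0.48 CPM in HFHC and 3.73 ± 0.12 CPM in Chow (0.01 ± 0.15, adjusted p = 0.969). The diets overlapped for both. Of 17 tested genes of ITAM and Fc receptor signalling, none was called and the median was 0.18. Positive values were seen in 15 of them, against 49.5% of all tested genes. At an unadjusted p under 0.05, edgeR gave 2 of them higher and 0 lower, against 10.8% and 11.5% of all tested genes. The smallest p was that of Clec7a, the beta-glucan receptor dectin-1 (0.57 ± 0.23, adjusted p = 0.181).

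Lipid-associated macrophage genes held the only call. Lgals3 encodes galectin-3, a sugar-binding protein abundant in activated macrophages, from a gene on the plus strand of chromosome 14 (mm10, 47367751 to 47386160). It had 3.56, 3.14 and 4.16 CPM in HFHC livers and 1.897, 1.995 and 2.11 CPM in Chow livers. The lowest HFHC liver stood well above the highest Chow liver, and Lgals3 rose by 0.85 ± 0.17 on the log2 scale, or 1.81-fold (adjusted p = 0.0198). The counts behind it were 98 to 124 per HFHC library and 50 to 56 per Chow library. Which cells of the liver held Lgals3 transcripts was not tested. The call was lost without HFHC replicate 1 (adjusted p = 0.0585), HFHC replicate 3 (0.0558), Chow replicate 7 (0.081) or Chow replicate 9 (0.0552), while the log2 fold change stayed between 0.74 and 0.95 in the fits that left out 1 library.

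Gpnmb, a transmembrane glycoprotein of lipid-laden macrophages on chromosome 6 at 49036546 to 49070929 (mm10, plus strand), was at the edge of detection. It had 16, 18 and 8 counts in HFHC livers and 3, 0 and 0 counts in Chow livers. Over each diet this made 42 counts in HFHC against 3 in Chow, a 12.2-fold ratio of summed CPM with an exact 95% interval of 3.89 to 61.4 that covers counting error only. With no filter on low counts, edgeR called Gpnmb higher (adjusted p = 0.0393), in a fit that called 2.54% of genes higher. DESeq2 gave it no adjusted p. In fits with 1 library left out, Gpnmb passed the filter only through the HFHC libraries, where it is high, and without Chow replicate 7 the Chow livers held 0 counts, so its adjusted p there (0.0363 to 0.109) is no support for a difference. Of all genes in the fits that left out a library, 1.92% were called higher without HFHC replicate 1, 1.77% without HFHC 2, 2.53% without HFHC 3, 1.36% without Chow 7, 3.46% without Chow 8 and 1.73% without Chow 9.

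Trem2, the lipid-sensing receptor that signals through Tyrobp, had 1.02, 0.833 and 0.838 CPM in HFHC and 0.683, 0.508 and 0.603 CPM in Chow (0.58 ± 0.26, adjusted p = 0.225). Itgax, which encodes CD11c, had 0.604, 0.897 and 0.671 CPM in HFHC and 0.493, 0.472 and 0.490 CPM in Chow (0.57 ± 0.29, adjusted p = 0.281). Neither overlapped between the diets, and both rested on 13 to 32 counts per library, which left wide errors. Cd63, a tetraspanin of late endosomes, averaged 2.58 ± 0.61 CPM in HFHC and 1.51 ± 0.40 CPM in Chow (0.76 ± 0.26, adjusted p = 0.114). Its values were not whole numbers in any of the 6 libraries, so its level is uncertain.

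The tetraspanin gene Cd9 (-0.22 ± 0.12) and Spp1, which encodes osteopontin (0.13 ± 0.10), stood apart from the rest of this group. Spp1 had 28.0, 31.4 and 33.3 CPM in HFHC and 27.9, 26.2 and 30.5 CPM in Chow, and Cd9 averaged 11.2 ± 0.87 CPM in HFHC and 13.03 ± 1.8 CPM in Chow. Other genes cover part of their exons, with Gm42793 on the same strand over 18.8% of Spp1 and Gm26728 on the opposite strand over 10.7% of Cd9. Bile duct cells also express both genes. The 7 cholangiocyte markers in the table summed to 14.7 to 17.5 CPM in HFHC and 16.2 to 18.7 CPM in Chow, with no call among 5 tested. Their part in the levels of Spp1 and Cd9 was not tested.

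**Figure D2:**
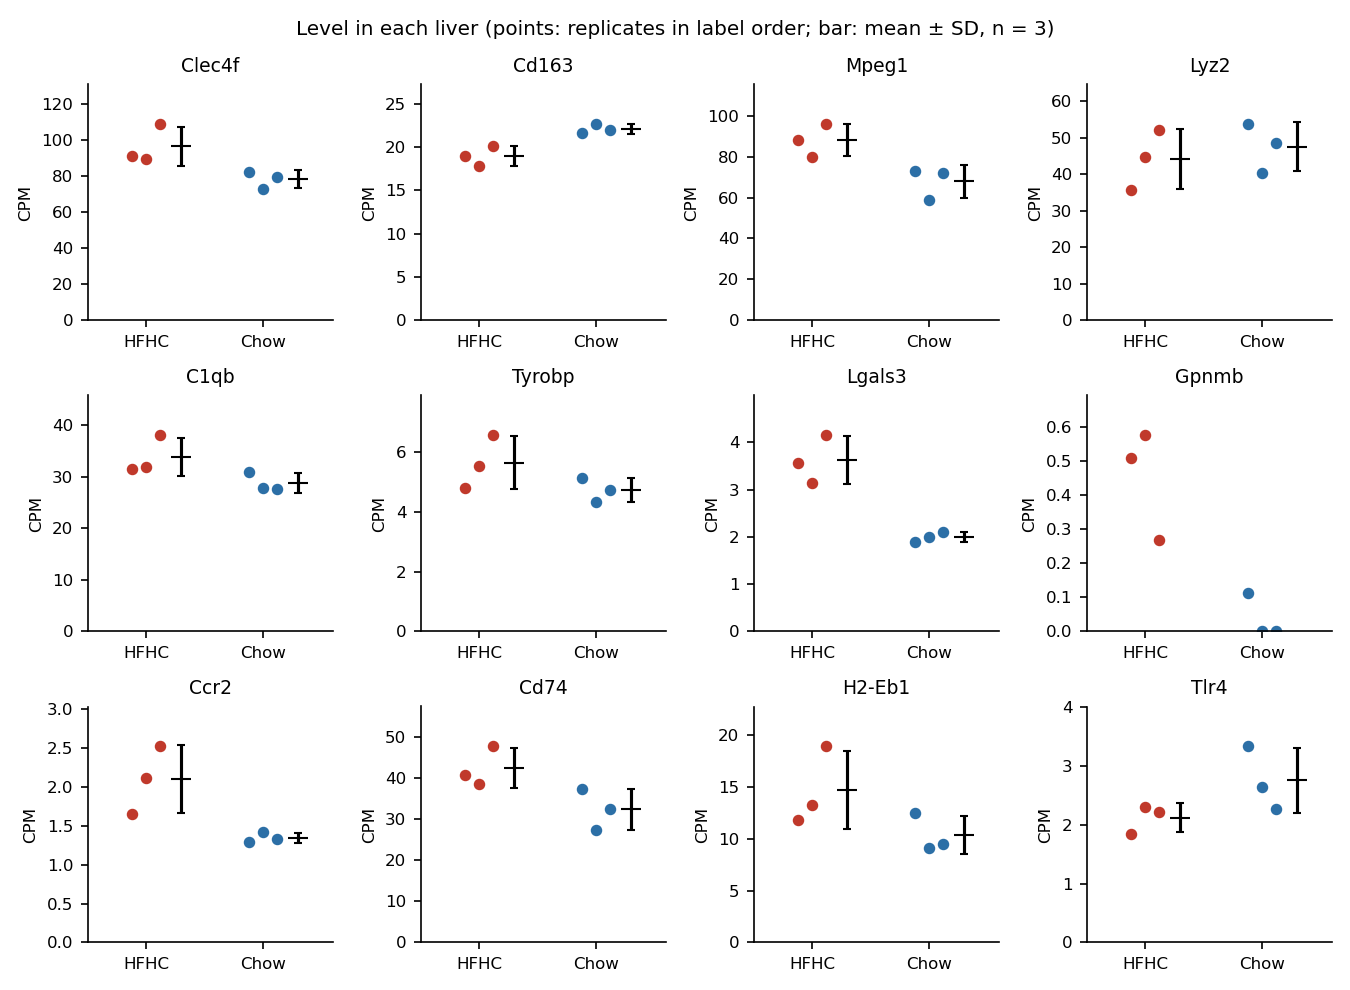
CPM in each liver for 12 genes, HFHC left and Chow right, with points for replicates and black bars for mean ± SD (n = 3; no bar for Gpnmb, which 2 Chow livers list at 0). Lgals3 ran from 3.14 to 4.16 CPM in HFHC and from 1.897 to 2.11 CPM in Chow, while Cd163 lay lower in every HFHC liver and Lyz2 overlapped.

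In a list of 22 other lipid-associated macrophage genes, 5 rose, 1 fell and 16 were not called, with a median of 0.22. Among all tested genes, 3.38% were called higher and 3.30% lower. Plin2, a lipid droplet coat protein, rose by 1.09 ± 0.13 (726 ± 47 CPM in HFHC, 341 ± 65 CPM in Chow). The lysosomal protease gene Ctsd rose by 0.40 ± 0.08 (adjusted p = 0.0156) and Lgals1, galectin-1, by 1.03 ± 0.22 (adjusted p = 0.0252). Lpl, lipoprotein lipase, fell by 0.77 ± 0.11 to 20.6 ± 0.22 CPM in HFHC, against 35.2 ± 5.0 CPM in Chow. Plin2 and Ctsd are also expressed by hepatocytes, the bulk of this tissue, and neither had a whole value in any of the 6 libraries. The call of Ctsd was lost without HFHC replicate 1 (0.0577) or Chow replicate 7 (0.078). That of Lgals1 was lost without Chow replicate 7 (0.0992) or 9 (0.0667) and with each library's GC and length trend taken out (0.0542). Mmp12, a macrophage elastase chosen after its values were seen, had 18, 73 and 16 counts in HFHC and 4, 9 and 3 counts in Chow (2.51 ± 0.71, adjusted p = 0.0687). HFHC replicate 2 held 73 of the 107 HFHC counts, and without it the log2 fold change was 1.46 (adjusted p = 0.142). DESeq2 called Mmp12 (adjusted p = 0.00317). The gene passed the filter only through the HFHC libraries, where it is high, so its p-values are no support for a difference.

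The recruited monocyte genes were all positive, from 0.57 to 0.64, and none was called. Ccr2, the CCL2 receptor that brings monocytes out of the marrow and into tissue, had 1.65, 2.11 and 2.53 CPM in HFHC and 1.29, 1.42 and 1.34 CPM in Chow. Its HFHC livers were all above its Chow livers, at 0.64 ± 0.21 (adjusted p = 0.112), and it was called (0.81, adjusted p = 0.0489) only in the alternative that took out each library's GC and length trend, where 3.01% of genes were called higher. Cx3cr1, the fractalkine receptor, had 0.763, 0.833 and 0.872 CPM in HFHC and 0.607, 0.580 and 0.453 CPM in Chow (0.58 ± 0.26, adjusted p = 0.230). Ly6c2, a surface protein of inflammatory monocytes, had 0.445, 0.384 and 0.658 CPM in HFHC and 0.404, 0.499 and 0.0754 CPM in Chow (0.57 ± 0.52, adjusted p = 0.578). Chow replicate 9 alone was low for Ly6c2, with 2 counts, and without it the log2 fold change was 0.11. Values that were not whole occurred in 2 libraries for Ccr2 and 3 for Ly6c2.

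Of 18 tested genes among recruitment ligands, receptors and growth factors, 1 rose, 1 fell and 16 were not called (median 0.19). Calls among all tested genes came to 3.38% higher and 3.30% lower. Cxcl9, an interferon-induced chemokine for T cells, rose by 1.14 ± 0.15 to 11.3 ± 2.1 CPM in HFHC, against 5.12 ± 0.54 CPM in Chow (adjusted p = 0.00379). Ccl9, a CCR1 ligand of mouse, fell by 1.24 ± 0.13 to 25.5 ± 3.1 CPM in HFHC, against 60.2 ± 9.2 CPM in Chow (adjusted p = 0.00105). Genes chosen after their values were seen include the CCR2 ligand gene Ccl2, which averaged 0.712 ± 0.451 CPM in HFHC and 0.448 ± 0.191 CPM in Chow (0.67 ± 0.50, adjusted p = 0.489). The log2 fold change of the CSF1R ligand gene Csf1 was -0.11 ± 0.14 (adjusted p = 0.717), and that of Il34, the other ligand, was 0.51 ± 0.21 (adjusted p = 0.201). The integrin gene Itgb2, also chosen afterwards, stood at 0.56 ± 0.16 (adjusted p = 0.0733).

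The 5 class II genes were all positive, with a median of 0.47 and a range from 0.39 to 0.57, and none was called. H2-Aa and H2-Ab1 encode the alpha and beta chains of the I-A molecule, and H2-Eb1 the beta chain of I-E, whose partner alpha chain is not made in C57BL/6 mice. Cd74 encodes the invariant chain that escorts class II molecules, and Ciita the coactivator that switches these genes on. H2-Aa, H2-Ab1 and H2-Eb1 lie within chromosome 17 from 34257689 to 34316674 (mm10). Ciita acts through factors bound to the X and Y boxes upstream of class II genes. Promoter windows of 300 bases (250 before and 50 after the start, RefSeq, GRCm38.p6) matched 27 of the 36 genes by symbol, H2-Aa and H2-Eb1 among them but not H2-Ab1, Cd74 or Ciita. Stretches of both are shown 5′ to 3′ on the strand of the gene, because both hold these boxes. Any link of the boxes to the fold changes was not tested. Capitals mark the core letters GCAAC of the X box and CTGATTGG of the Y box, as found by letter search.
H2-Aa, chr17:34287822-34287919, minus strand: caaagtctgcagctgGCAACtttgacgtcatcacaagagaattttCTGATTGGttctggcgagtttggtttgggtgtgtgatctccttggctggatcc
H2-Eb1, chr17:34305761-34305857, plus strand: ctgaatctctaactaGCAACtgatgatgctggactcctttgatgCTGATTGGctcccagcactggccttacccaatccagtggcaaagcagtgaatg

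In H2-Aa the X core began 81 bases and the Y box 51 bases before the start, with 25 bases between them, and in H2-Eb1 they began 91 and 62 bases before the start, with 24 between. Searched on both strands over 27025 genes, GCAAC was in 38.6% of promoter windows, CTGATTGG in 4.7%, and the 2 in this order 20 to 30 bases apart in 20 genes, or 0.074%. Among the 27 matched genes only H2-Aa and H2-Eb1 held the pair. GAGGAAGT, a core bound by the macrophage factor PU.1, was in 4 of the 27 (Ctss, C1qc, Spp1 and Ly6c2) against 3.69% of all genes. A match is a run of letters and was not tested as a binding site.

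Cd74 had 40.7, 38.6 and 47.9 CPM in HFHC livers and 37.5, 27.4 and 32.4 CPM in Chow livers (0.39 ± 0.12, adjusted p = 0.103), with the diets just apart. H2-Aa had 18.2, 19.1 and 24.5 CPM in HFHC and 18.0, 13.6 and 13.9 CPM in Chow (0.44 ± 0.15, adjusted p = 0.112). H2-Ab1 had 11.9, 13.5 and 16.1 CPM in HFHC and 12.1, 8.45 and 9.39 CPM in Chow (0.47 ± 0.16, adjusted p = 0.109). In each of these genes HFHC replicate 3 was the highest liver and Chow replicate 7 the highest of its diet, close to HFHC replicates 1 and 2. H2-Eb1 had 11.9, 13.2 and 19.0 CPM in HFHC and 12.5, 9.14 and 9.54 CPM in Chow (0.50 ± 0.19, adjusted p = 0.154). Ciita, on 22 to 61 counts per library, had 1.94, 1.51 and 1.64 CPM in HFHC and 1.56, 1.05 and 0.830 CPM in Chow (0.57 ± 0.26, adjusted p = 0.238). DESeq2 called Cd74 (adjusted p = 0.0496), and the class II median was 0.30 without HFHC replicate 3 and 0.63 without Chow replicate 7.

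Per kilobase of exon, H2-Aa stood at 1.01 ± 0.05 of H2-Ab1 in HFHC and 1.03 ± 0.05 in Chow, and the diets overlapped. The size of such a ratio depends on the exon lengths, which merge all annotated transcripts of a gene, so only the diets are compared. Cd74 stood at 4.72 ± 0.46 of H2-Ab1 in HFHC and 4.997 ± 0.27 in Chow, again overlapping. Other cells carry class II, and 1 of their markers moved with diet. Ighm, the heavy chain of IgM, rose by 1.45 ± 0.24 (17.0, 19.5 and 11.6 CPM in HFHC, 4.78, 8.02 and 4.75 CPM in Chow, adjusted p = 0.00874). The other 6 B cell markers, none called, summed to 4.01 to 4.66 CPM in HFHC and 3.23 to 4.78 CPM in Chow. The 8 dendritic cell markers, with none called among 6 tested, summed to 10.2 to 11.6 CPM in HFHC and 10.7 to 11.5 CPM in Chow, without a separation of the diets. The part of B cells in the class II values was not tested.

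None of the 15 tested genes of class II loading and costimulation was called, and the median was 0.09. Positive values were seen in 8 of them, against 49.5% of all tested genes. At an unadjusted p under 0.05, edgeR gave 1 of them higher and 0 lower, against 10.8% and 11.5% of all tested genes. The smallest p was that of Cd83, which stabilizes class II at the surface of dendritic and B cells (0.74 ± 0.25, adjusted p = 0.112). In class I presentation 8 of 20 genes rose, none fell and 12 were not called (median 0.27). This stands against 3.38% of all tested genes called higher and 3.30% called lower. H2-Q1 (2.54 ± 0.18), H2-Q6 (0.84 ± 0.11) and H2-Q7 (0.65 ± 0.09) had the smallest p. None of these had a whole value in any library, so their levels are uncertain. Whether reads were shared with other loci was not tested. Tap1, the peptide transporter for class I, was chosen after its values were seen. It had 31.2, 32.0 and 31.6 CPM in HFHC and 23.2, 17.9 and 16.8 CPM in Chow (0.71 ± 0.12, adjusted p = 0.00915).

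The sensors of bacterial products differed among themselves, and none was called. Tlr2, the receptor for bacterial lipoproteins, had 2.48, 3.11 and 3.09 CPM in HFHC and 2.01, 2.18 and 1.74 CPM in Chow, with no overlap (0.55 ± 0.18, adjusted p = 0.105). Tlr4, the receptor for lipopolysaccharide, had 1.85, 2.31 and 2.21 CPM in HFHC and 3.34, 2.65 and 2.26 CPM in Chow (-0.37 ± 0.20, adjusted p = 0.302). Only the highest HFHC liver and the lowest Chow liver overlapped for Tlr4. Cd14, which hands lipopolysaccharide to TLR4, had 1.37, 3.04 and 2.55 CPM in HFHC and 1.37, 1.38 and 0.717 CPM in Chow (1.002 ± 0.34, adjusted p = 0.118). Its log2 fold change was the largest of the 35 tested genes, but HFHC replicate 1 stood at the Chow level. Over all tested genes 3.38% were called higher and 3.30% lower. Of 25 tested genes of Toll-like receptor signalling, 1 fell, none rose and 24 were not called (median 0.07). The one that fell was Lbp, the plasma protein that delivers lipopolysaccharide to CD14 and is made largely by hepatocytes. Its level was 39.2 ± 5.4 CPM in HFHC and 62.9 ± 3.7 CPM in Chow (-0.68 ± 0.11, adjusted p = 0.0077).

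Libraries differed within a diet as well as between diets, and whether that spread lies between animals or is technical is not known. HFHC replicate 3 was the highest of the 6 libraries in 22 of the 35 genes, or 62.9%, against 19.7% of all tested genes, and a Chow library was highest in 5. Without HFHC replicate 3 the median log2 fold change of the 35 genes was 0.19, with 28 positive. In the other fits that left out a library it ran from 0.26 to 0.37. With all libraries kept, the median was 0.215 with each library's GC and length trend taken out and 0.217 with weighted limma-voom. Each of these fits had 27 positive values. HFHC replicate 3 was highest in 4 of 7 resident Kupffer genes, all 3 C1q genes and 4 of 5 class II genes. Marco, Cd68, Cd63, Itgax, Tlr2 and Cd14 were highest in HFHC replicate 2.

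**Figure D3:**
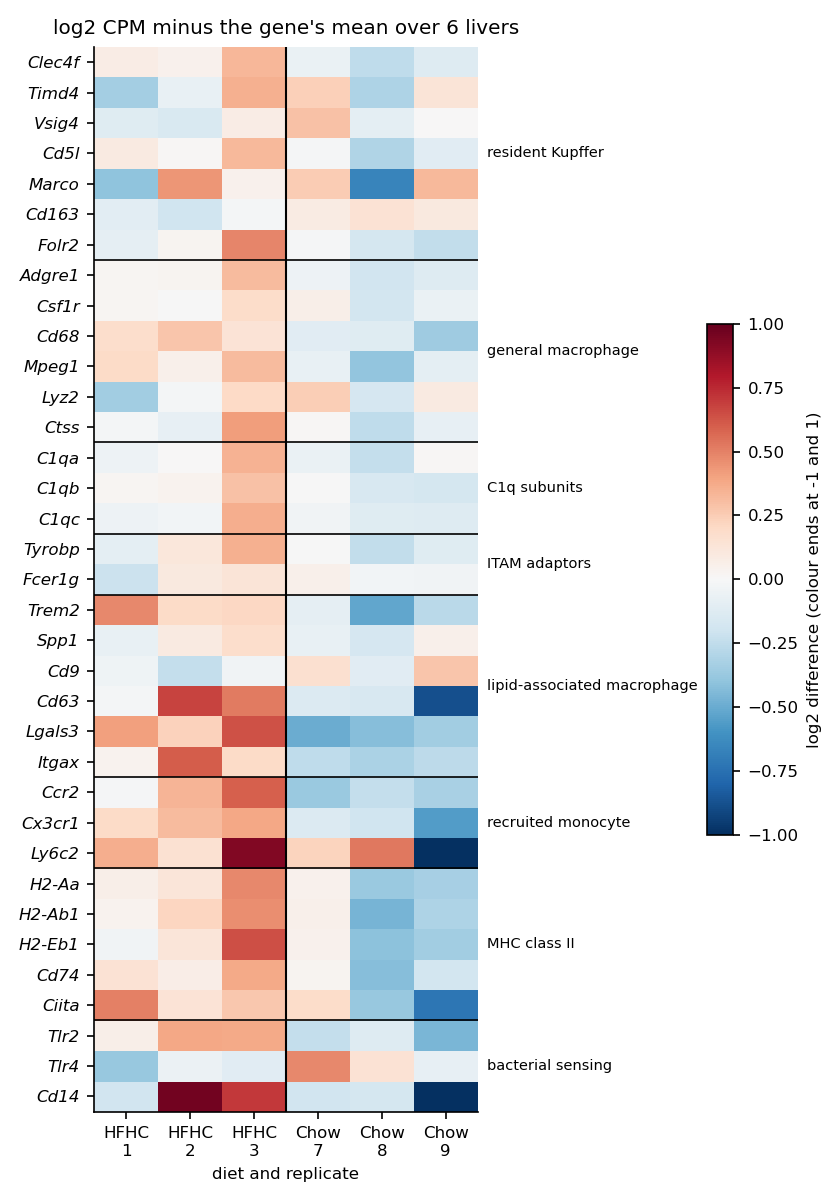
Log2 CPM of the 35 tested genes in each liver minus the mean of that gene over the 6 livers, with HFHC replicates 1 to 3 left of the line and Chow replicates 7 to 9 right of it (red above, blue below, colours ending at -1 and 1). HFHC replicate 3 was highest in 22 genes, and Chow replicate 8 was below the mean for most Kupffer and class II genes.

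Ratios of 2 genes within a liver do not depend on library size. The pairs were chosen after the values were seen and are given without a test. Clec4f stood at 4.801, 4.801 and 5.01 times Vsig4 in HFHC livers and at 3.25, 3.76 and 3.82 times in Chow livers. Cd5l over Clec4f was level, at 0.939 ± 0.018 in HFHC and 0.952 ± 0.034 in Chow. The diets overlapped for Cd5l over Clec4f and were apart for Clec4f over Vsig4. Cd163 over Clec4f was 0.208, 0.199 and 0.185 in HFHC and 0.262, 0.311 and 0.276 in Chow, without overlap. Timd4 over Clec4f was 0.0467, 0.0572 and 0.0633 in HFHC and 0.0771, 0.0598 and 0.0741 in Chow, with overlap. Tlr4 over Tlr2 was 0.744, 0.742 and 0.717 in HFHC and 1.66, 1.22 and 1.30 in Chow, without overlap. Lgals3 over Mpeg1 was 0.0410 ± 0.0021 in HFHC and 0.0298 ± 0.0040 in Chow, without overlap, whereas Cd74 over Mpeg1 was 0.481 ± 0.019 in HFHC and 0.477 ± 0.032 in Chow.

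**Figure D4:**
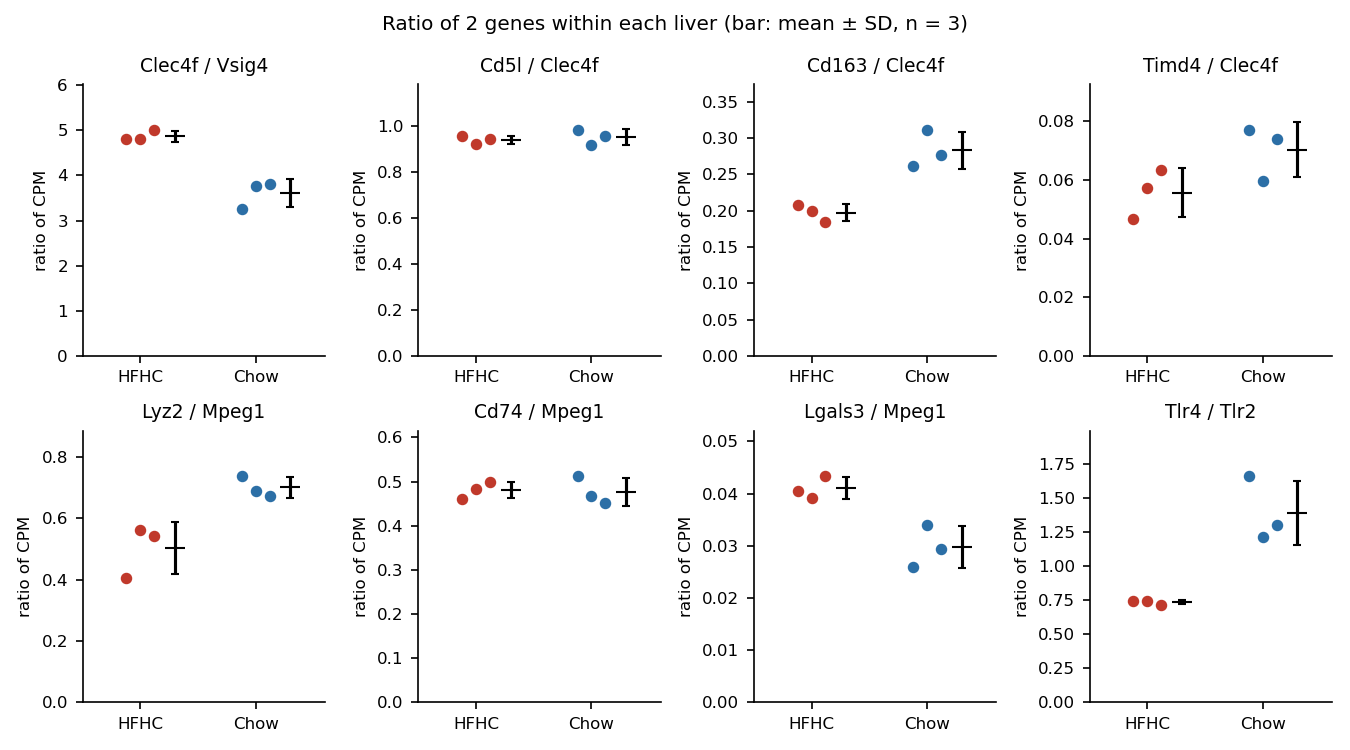
Ratio of the CPM of 2 genes within each liver for 8 pairs, HFHC left and Chow right, with points for replicates and bars for mean ± SD (n = 3). Clec4f over Vsig4 and Lgals3 over Mpeg1 lay higher in every HFHC liver, Tlr4 over Tlr2, Cd163 over Clec4f and Lyz2 over Mpeg1 lower, and the other 3 pairs overlapped.

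Levels of different genes are set side by side per kilobase of exon, with the exons of all annotated transcripts of a gene merged. That length can exceed the length of the transcript present in liver, so the order of genes is only rough. On that scale Cd5l was highest, with 44.6 CPM per kilobase in HFHC and 36.7 in Chow. In HFHC the next were Clec4f (39.1), Lyz2 (33.6) and C1qb (31.1), and in Chow they were Lyz2 (36.2), Clec4f (31.7) and C1qb (26.4). Cd74 ranked sixth in both diets. Levels spread widely among the resident Kupffer genes, since Marco stood at 0.938 in HFHC and 0.915 in Chow. Lgals3 stood at 1.95 CPM per kilobase in HFHC and 1.08 in Chow, and Trem2 at 0.181 in HFHC and 0.121 in Chow. Ccr2 stood at 0.311 in HFHC and 0.199 in Chow, and Gpnmb, the lowest, at 0.0693 in HFHC and 0.00583 in Chow. Where 3.38% of all tested genes were called higher and 3.30% lower, 20 other Kupffer genes were also read. Of these, 1 fell, none rose and 19 were not called (median 0.08). The one that fell was C6, a complement component that hepatocytes also make (-0.49 ± 0.12, adjusted p = 0.0423). No library gave it a whole value, and its call was lost with upper-quartile factors (0.0564) and in every fit that left out a library (0.0577 to 0.146).

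Markers of further cell types are given for the same livers. The 8 pan-leukocyte markers summed to 124.0 to 132.4 CPM in HFHC and 132.5 to 136.6 CPM in Chow, with no call. Lcp1, whose values were not whole in any library, made up most of that sum (88.0 to 89.1 CPM in HFHC, 96.0 to 103.5 CPM in Chow). The other 7 summed to 35.2 to 44.3 CPM in HFHC and 32.5 to 36.6 CPM in Chow. The sinusoidal endothelial markers (250.7 to 273.4 CPM in HFHC, 261.3 to 271.6 CPM in Chow) and the stellate cell markers (225.9 to 253.5 CPM in HFHC, 220.7 to 265.3 CPM in Chow) overlapped, with no call in either list of 8. The 10 T and NK cell markers summed to 3.14 to 4.49 CPM in HFHC and 3.81 to 4.52 CPM in Chow, and 5 neutrophil markers to 2.29 to 2.85 CPM in HFHC and 2.19 to 2.81 CPM in Chow, with 2 tested in each list and none called. The 5 erythroid markers summed to 272.4 to 320.8 CPM in HFHC and 255.1 to 278.9 CPM in Chow, with Hba-a1 called higher. No marker in these lists was at 0 in all 6 libraries. Their part in the values of the macrophage genes was not tested.

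**Figure D5:**
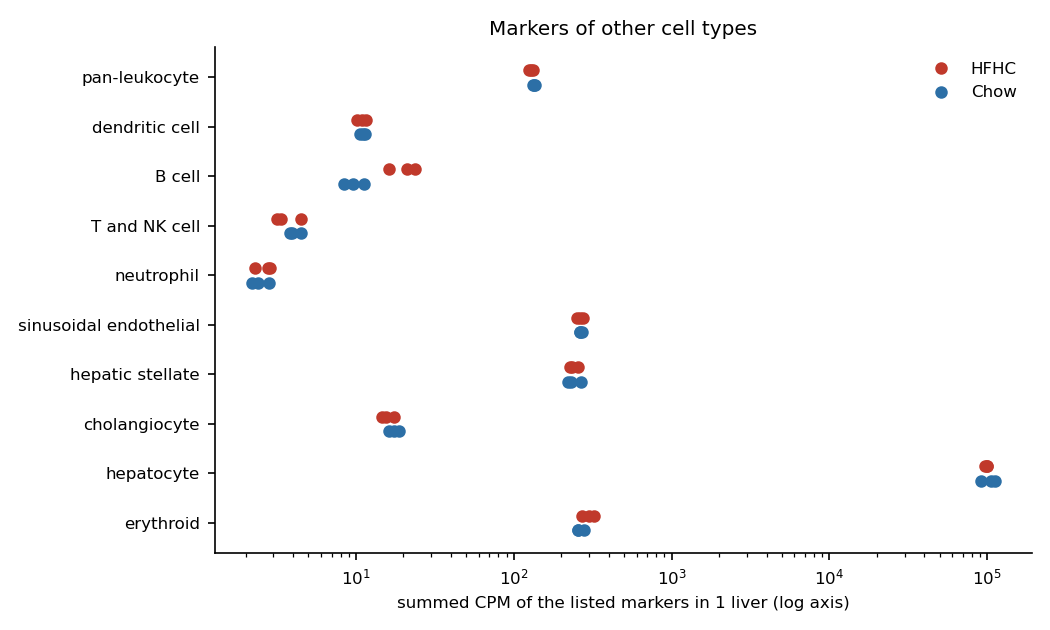
Summed CPM of the markers of each other cell type in each liver on a log axis, HFHC points above Chow points. Only the B cell and pan-leukocyte sums separated the diets, and neither sum did so without Ighm (11.6 to 19.5 CPM in HFHC, 4.75 to 8.02 CPM in Chow) or without Lcp1.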

How the data were processed

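The deposited table held the authors' estimated counts (expected counts) per gene, not normalized, and 22.4% of values were not whole (tolerance 0.01). Per the labels' protocols, libraries were stranded total RNA depleted of rRNA. The submitters' processing notes name STAR 2.7.3a, Partek 9 and mm10; the annotation and strand setting of the counting are not given in the sources used. The labels name both RNAlater and snap freezing for storage, and do not state that each sample was a separate animal, so p-values measure only the spread between samples, which may be technical. The members and lists were chosen with earlier results of these data known.

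Counts were rounded and filtered with filterByExpr (minimum count 10), leaving 14896 genes. edgeR 4.0.16 was run with TMM factors (0.9705 to 1.0216), a quasi-likelihood F test and Benjamini-Hochberg adjustment over all tested genes. SE is the size of the log2 fold change divided by the square root of F. CPM uses TMM-scaled library sizes, and exon lengths come from GENCODE M21, which matched 19618 genes by start. The exon length of a gene is that of the merged exons of all its annotated transcripts. Each end in the table lay 1 base past GENCODE in 19528 genes, and that base is taken off. Of 21 symbols turned into dates, 20 were restored by coordinates. Of 242 list entries, 234 matched by symbol and 2 by synonym.

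Every gene of the 36 is reported. By rule, values per sample were for called genes and the smallest p in each role, and further genes were added after their values were seen. From each of 8 pathway lists came up to 3 called genes per direction by smallest p, or else the smallest p. Alternatives were other scaling factors, no filter, DESeq2 1.42.0, limma-voom 3.58.1 (weighted or not), dropping the 10 most abundant genes, taking out GC and length trends, and leaving out each library. Tested on simulated data for this comparison with 14896 genes, edgeR found 34 of 67 genes set to a 1.5-fold change. At 2-fold it found 58 of 67, and at 4-fold 65 of 66. Of its 169 calls there, 12 were false. Counts were drawn independently for each gene at the trended dispersion, and the changed genes were picked at random. These rates therefore do not give the rate for the 36 genes, some of which have few counts. R 4.3.3, Python 3.11.15 and scipy 1.17.1 were used.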

Additional observations from a re-analysis of the deposited data

How the results depend on the processing

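Over the 14 alternatives, 469 of 490 values of the 35 genes kept direction and side of the threshold. Because 34 of the 35 were not called in the main fit, most of these values are genes that stayed uncalled. Lgals3 was called in each alternative that kept all libraries. Its call was lost without HFHC replicate 1 or 3 or Chow replicate 7 or 9. The count of macrophage and class II genes called higher was 3 with DESeq2 (Cd74, Lgals3 and Mpeg1), 2 with no filter on low counts (Gpnmb and Lgals3), 2 with GC and length trends taken out (Ccr2 and Lgals3), and 0 to 1 in fits that left out a library, with 0 without HFHC replicate 1 or Chow replicate 9. Without HFHC replicate 3 or Chow replicate 7 the 1 was Gpnmb, which passed the filter there through HFHC alone. None was called lower in any. Signs near 0 turned round for 4 genes. Timd4 was 0.00063 with upper-quartile factors, and -0.24 to 0.13 without a library, positive without HFHC replicate 1 or 2 or Chow replicate 7 or 9. Marco was -0.15 with weighted limma-voom, -0.066 with the trends taken out, and -0.21 to 0.23 without a library, negative without HFHC replicate 2 or Chow replicate 8. Fcer1g was -0.0585 with weighted limma-voom, -0.11 with the trends taken out, and -0.047 to 0.12 without a library, negative without HFHC replicate 2 or 3. Lyz2 was -0.24 to 0.034 without a library, positive without HFHC replicate 1. Over all genes, fits that left out a library called 207 to 527 higher and 154 to 553 lower, both lowest without Chow replicate 7, and weighted limma-voom called 790 lower. Upper-quartile factors called 595 higher and 400 lower. Of the pathway list genes 14 rose and 6 fell, where 3.38% of all tested genes were called higher and 3.30% lower. With the trends taken out 9 rose, where 3.01% of all genes did. Without a library 6 to 12 rose and 3 to 5 fell. The cause was not tested. No paired analysis was possible, because the labels give no litter number or pairing and the diets share no replicate number. The mice were littermates, so any litter structure was left out of the fits. Genes under about 1 CPM rest on few counts.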
